A study of Mus musculus with 12 samples.

Results

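The genes described here are 9 that write, remove or read DNA methylation in the mouse: the DNA methyltransferases Dnmt1, Dnmt3a and Dnmt3b, the methylation dioxygenases Tet1, Tet2 and Tet3, the methyl-CpG binding proteins Mbd1 and Mbd2, and Uhrf1, the partner of Dnmt1. They were taken by name from the 54429 entries of the gene count table, and all 9 were found. Total RNA had been sequenced from tissue punches of C57BL/6 mice, in 12 libraries of 4 groups with 3 libraries each. These were the basolateral amygdala (BLA) of early socially isolated males, the BLA of group-housed males, the ventral tegmental area (VTA) of early socially isolated females, and the VTA of group-housed females. The region was taken from the sample titles and the sex from the design text, while the tissue label says only cerebrum, and no ages are given. Because every BLA library was male and every VTA library female, region and sex cannot be told apart. No label tells if 3 libraries stand for 3 animals, so each p-value measures the spread between libraries, which may be technical.

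Methylation of cytosine in CpG dinucleotides is copied to the new strand after DNA replication by DNMT1, which UHRF1 brings to hemimethylated sites, and is set on unmethylated sites by DNMT3A and DNMT3B. TET enzymes oxidise methylcytosine, a step that opens the way to its removal by base excision repair. The proteins MBD1 and MBD2 bind methylated CpGs and bring in corepressor complexes. Neurons hold high levels of DNMT3A and of the oxidised base hydroxymethylcytosine, and in rodents this machinery has been studied for its part in lasting effects of early experience.

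Total counts were between 28278708 and 69276892 per library. Loci that collect ribosomal RNA reads took 18.6%, 28.6% and 41.8% of counts in BLA isolated library 3 and BLA group-housed libraries 1 and 2, and at most 1.57% in the other libraries. Over 6 choroid plexus markers the summed level was 245 and 3321 CPM (counts scaled to a common library size) in VTA isolated libraries 1 and 3, against 12.3 to 32.3 CPM in the other 10 libraries. Most of the sum in library 1 was Ttr, with 205 CPM. Folr1 (2.96 CPM) and Otx2 (15.1 CPM) were also higher there than in the VTA libraries other than 1 and 3. Kl (8.15 CPM) and Clic6 (12.6 CPM) were within the range of those libraries. VTA isolated libraries 1 and 3 also held 94.8 and 409 CPM of 6 cortical and basolateral glutamatergic markers, against 48.1 to 60.6 CPM in the other VTA libraries. The region labels were met by the sums of their markers. In BLA libraries, 6 markers of midbrain dopamine neurons summed to 65.1 to 81.4 CPM, and in VTA libraries to 609 to 1307 CPM. Most of the BLA sum was Nr4a2, with 45.8 to 63.2 CPM in BLA and 23.6 to 55.4 CPM in VTA. The other dopamine markers were each higher in every VTA library than in any BLA library. The glutamatergic markers summed to 730 to 1488 CPM in BLA libraries. BLA libraries also held 376 to 1443 CPM of 6 markers of striatal projection neurons, against 68.7 to 318 CPM in VTA libraries. Of the 9 genes, Dnmt3b had 7 to 112 counts per library and Uhrf1 24 to 97, and the other members had 562 to 8650, so values of the first 2 are the least precise.

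Ranked by level per kilobase of exon, the maintenance methyltransferase Dnmt1 led and the de novo methyltransferase Dnmt3b came last. The mean over the 12 libraries was 11.4 CPM per kb for Dnmt1, 9.91 for Mbd2, 7.94 for Mbd1 and 6.59 for Dnmt3a. The TET enzymes followed with 3.80 CPM per kb for Tet2, 3.27 for Tet3 and 2.08 for Tet1, and Uhrf1 (0.300) and Dnmt3b (0.160) lay far below. The order of the group means was the same in all 4 groups. Not every step of the order was beyond the spread between libraries. Dnmt1 and Mbd2 overlapped in 3 of 4 groups, Tet2 and Tet3 overlapped in both BLA groups, Tet3 and Tet1 in both VTA groups, Mbd2 and Mbd1 in VTA group-housed libraries, and Uhrf1 and Dnmt3b there too. Divided by the longest transcript instead, Mbd2 (16.3 CPM per kb) stood above Dnmt1 (14.3), and both still stood above Mbd1 (13.6) and Dnmt3a (11.3). In bulk tissue, fewer cells of a type and less RNA per cell cannot be told apart.

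**Figure D1:**
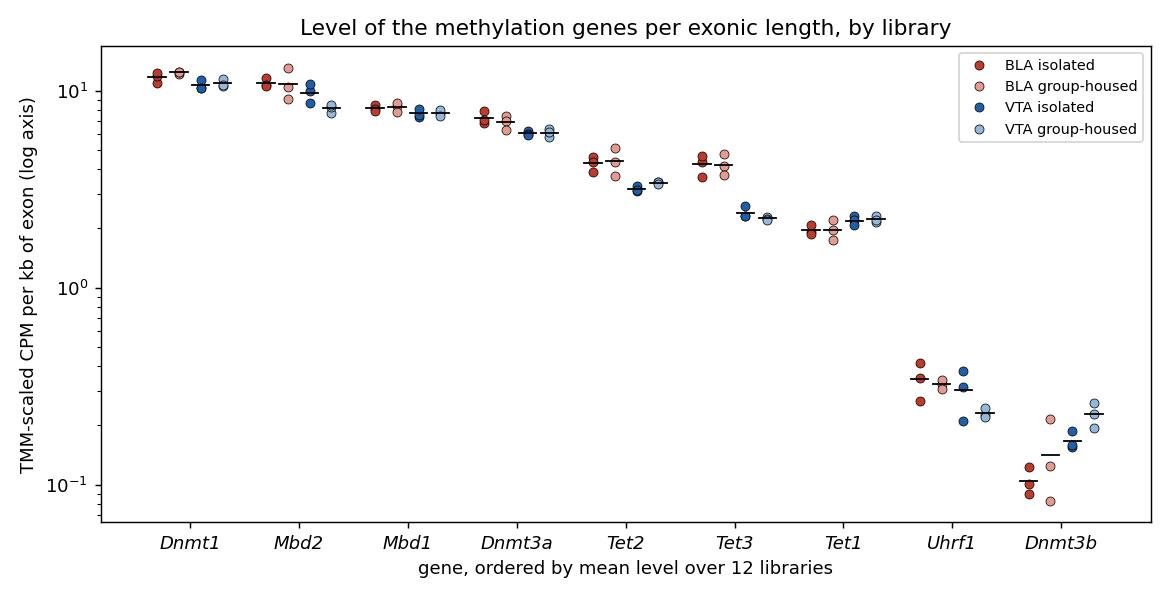
Level of each of the 9 genes in each library, in TMM-scaled CPM per kb of exon on a log axis; points are libraries (3 per group), lines are group means. Tet2 and Tet3 sit higher in all BLA libraries than in any VTA library, and Uhrf1 and Dnmt3b lie below the other 7 genes in every library.

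Early social isolation was first set against group housing in the BLA of males. None of the 9 genes was called for housing: none passed an adjusted p of 0.05, where 0 of all 22110 genes tested did (0% called), and none had an unadjusted p under 0.05, against 1.99% of all genes. The test was the quasi-likelihood test of edgeR, adjusted over all genes by the Benjamini-Hochberg method. DESeq2 and limma voom called none of the 9 genes here or in the VTA. All 9 genes passed edgeR's filter on low counts, here and in the other comparisons. For none of the 9 were the 2 groups apart, against 7.09% of all genes, and 4 estimates were above 0 and 5 below, beside 50.8% and 49.2% of all genes. All levels in the 2 housing comparisons are CPM scaled over the 6 libraries of a region.

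Dnmt3a, the main de novo methyltransferase of neurons, had 112, 97.5 and 101 CPM in isolated BLA libraries and 105, 99.9 and 89.99 CPM in group-housed BLA libraries. Tet3, the TET enzyme with the clearest difference between the regions, had 62.6, 51.9 and 66.8 CPM in isolated BLA and 58.9, 68.2 and 53.2 CPM in group-housed BLA. The groups overlapped for both genes. The log2 fold change was 0.08 (SE 0.10) for Dnmt3a and 0.01 (SE 0.12) for Tet3, with an edgeR adjusted p of 1.00 for each. Over the 7 abundant genes, that is all but Dnmt3b and Uhrf1, the 95% intervals of the fold change in the BLA ran from 0.809 at the lowest to 1.24 at the highest. The largest estimate was that of Dnmt3b, with 0.537, 0.391 and 0.442 CPM in isolated BLA and 0.540, 0.364 and 0.939 CPM in group-housed BLA. One group-housed library set it: the log2 fold change was -0.50 (SE 0.42), and -0.03 without BLA group-housed library 3. For Uhrf1 the levels were 0.977, 1.27 and 1.51 CPM in isolated BLA and 1.17, 1.25 and 1.12 CPM in group-housed BLA, again overlapping.

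The same question in the VTA of females gave no called member either: 0 of 9 passed the adjusted threshold in edgeR's quasi-likelihood test, where 1 of 24082 genes did (0.00415% called). The share of genes with an unadjusted p under 0.05 was 18.3% here, and 1 of the 9 genes, Tet2, was among them. The 2 groups were apart for 3 of the 9 genes (Mbd2 above, Tet2 and Dnmt3b below in isolated VTA), against 26.1% of all genes, a share close to that background.

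Among the writers, Dnmt3b had 0.893, 1.12 and 0.927 CPM in isolated VTA and 1.40, 1.17 and 1.58 CPM in group-housed VTA. All 3 isolated libraries were below all 3 group-housed ones, at a log2 fold change of -0.49 (SE 0.26) and an edgeR adjusted p of 0.328. Dnmt1 had 86.2, 97.7 and 86.7 CPM in isolated VTA and 101, 92.9 and 93.9 CPM in group-housed VTA. Dnmt3a had 117, 118 and 112 CPM in isolated VTA and 128, 114 and 122 CPM in group-housed VTA, so both of the abundant methyltransferases overlapped between the groups. Uhrf1, which recruits DNMT1, had 1.51, 1.05 and 1.83 CPM in isolated VTA and 1.15, 1.11 and 1.24 CPM in group-housed VTA. Its 2 high libraries were isolated libraries 1 and 3, those with choroid plexus markers. The log2 fold change of Uhrf1 was 0.32 (SE 0.28, edgeR adjusted p 0.541) with them. Without them it was -0.16, a value that rests on the 1 isolated library left.

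Of the erasers, Tet2 had 58.96, 64.5 and 59.6 CPM in isolated VTA and 69.1, 69.2 and 67.1 CPM in group-housed VTA. The isolated libraries were all lower, by a log2 fold change of -0.17 (SE 0.07, unadjusted p 0.0430, adjusted p 0.267 by edgeR's quasi-likelihood test). Without isolated libraries 1 and 3 it was -0.09, a value that rests on the 1 isolated library left. Tet1, with 40.2, 39.7 and 36.3 CPM in isolated VTA and 42.5, 39.6 and 40.5 CPM in group-housed VTA, overlapped between groups. Tet3 likewise overlapped, with 43.4, 45.0 and 49.3 CPM in isolated VTA and 45.6, 44.5 and 43.9 CPM in group-housed VTA.

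Of the readers, Mbd2, which links methylated CpGs to the NuRD corepressor complex, had 35.9, 32.4 and 39.4 CPM in isolated VTA and 29.6, 31.7 and 32.3 CPM in group-housed VTA. The groups did not overlap, but the lowest isolated and the highest group-housed library were nearly equal. The log2 fold change was 0.20 (SE 0.09, edgeR adjusted p 0.287), and 0.05 without isolated libraries 1 and 3. The sum of 5 microglia markers, on the scale over all 12 libraries, was 160, 133 and 208 CPM in isolated VTA and 127, 141 and 153 CPM in group-housed VTA, with the same 2 libraries highest. Of the VTA libraries, these 2 were also highest for the sums of neuronal, glutamatergic, striatal and choroid plexus markers. They were not the 2 highest for astrocyte, oligodendrocyte, oligodendrocyte precursor, endothelial and dopamine neuron markers. The part of any of these cells in the result was not tested. Mbd1, the other reader, had 55.8, 59.3 and 61.2 CPM in isolated VTA and 62.0, 63.6 and 59.1 CPM in group-housed VTA, which overlapped. Over the 7 abundant genes the 95% intervals of the fold change in the VTA ran from 0.798 to 1.33.

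**Figure D2:**
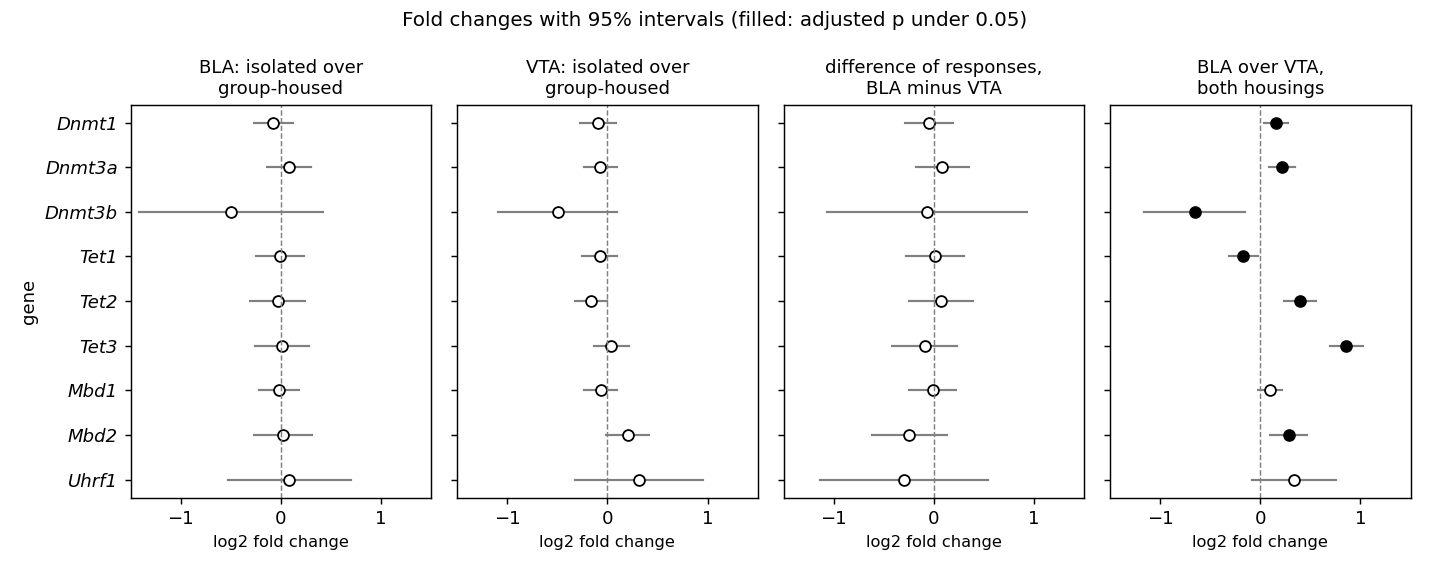
Log2 fold change of each gene (point) with its 95% interval (line) for isolated over group-housed libraries in the BLA and the VTA, for the difference of these responses, and for BLA over VTA; filled points have an edgeR adjusted p under 0.05. No housing estimate is filled, the intervals of Dnmt3b and Uhrf1 are the widest, and 7 of 9 genes are filled for BLA over VTA.

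The 2 regional responses were then compared in one fit of all 12 libraries. The response in the BLA minus that in the VTA passed the adjusted threshold for 0 of the 9 genes and for 0 of 25009 genes tested (0% called), and 14.9% of all genes, but none of the 9, had an unadjusted p under 0.05. By size the first was Uhrf1, at -0.30 on the log2 scale (SE 0.39), followed by Mbd2 at -0.24 (SE 0.17). The edgeR adjusted p over the 9 genes was between 0.501 and 0.983. The difference between a response in males and one in females, in different regions, again joins region and sex.

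The regions themselves differed for most of these genes. Over both housings, 7 of the 9 genes passed the adjusted threshold of edgeR's quasi-likelihood test between BLA and VTA, 5 higher in BLA and 2 lower, where 47.7% of 25009 genes did (23.7% higher and 24.1% lower). BLA and VTA libraries did not overlap at all for 2 of the 9, Tet3 and Tet2, both higher in BLA, against 27.1% of all genes. Levels in this comparison are CPM scaled over all 12 libraries, a scale on which a BLA value is 0.22 higher and a VTA value 0.22 lower in log2 than on the scales within a region. Besides sex, summed cell type markers moved with region. The sum of 5 oligodendrocyte markers was 2359 to 4791 CPM in BLA and 5954 to 11778 CPM in VTA. That of 5 neuronal markers was 3815 to 5616 CPM in BLA and 2382 to 3727 CPM in VTA. Not every neuronal marker went with the sum. Tubb3 had 347 to 452 CPM in BLA and 397 to 551 CPM in VTA, and Nefl 303 to 370 and 278 to 567 CPM. The sum of 5 microglia markers was 219 to 286 CPM in BLA and 127 to 208 CPM in VTA. That of 5 astrocyte markers was 972 to 1062 CPM in BLA and 1082 to 1418 CPM in VTA. Among these Slc1a3 went the other way, with 591 to 653 CPM in BLA and 345 to 551 CPM in VTA. The sum of 5 endothelial markers was 110 to 127 CPM in BLA and 130 to 190 CPM in VTA. None of these 5 sums overlapped between the regions, no marker of these lists was at 0 in all libraries, and their part in the differences below was not tested.

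Of the TET family, Tet3 and Tet2 were higher in BLA. Tet1 was lower there by a call close to the threshold (edgeR adjusted p 0.0492). The 300 bases around 1 RefSeq start of each of the 3 TET genes are shown, with the same for Dnmt3b. Dnmt3b was the de novo enzyme that was lower in BLA. Each window runs from 250 bases before to 50 bases after that start on GRCm38.p6, read on the gene's own strand. Each CG dinucleotide, the substrate of these enzymes, is in capitals. GENCODE places the outermost start of Tet3 at 83459084, that of Tet2 at 133545139 and that of Tet1 at 62908996, all on the minus strand. The windows of all 3 TET genes lie inside the genes, at other starts. Their CG counts are therefore not those of the outermost starts.
Tet3 (chr6:83441629-83441928, minus strand): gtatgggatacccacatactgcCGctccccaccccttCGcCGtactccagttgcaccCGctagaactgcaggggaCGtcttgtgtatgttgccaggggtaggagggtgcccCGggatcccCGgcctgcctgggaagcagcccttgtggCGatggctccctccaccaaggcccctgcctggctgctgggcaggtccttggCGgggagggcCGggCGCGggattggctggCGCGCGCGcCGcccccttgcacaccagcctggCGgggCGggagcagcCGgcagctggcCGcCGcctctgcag
Tet2 (chr3:133544341-133544640, minus strand): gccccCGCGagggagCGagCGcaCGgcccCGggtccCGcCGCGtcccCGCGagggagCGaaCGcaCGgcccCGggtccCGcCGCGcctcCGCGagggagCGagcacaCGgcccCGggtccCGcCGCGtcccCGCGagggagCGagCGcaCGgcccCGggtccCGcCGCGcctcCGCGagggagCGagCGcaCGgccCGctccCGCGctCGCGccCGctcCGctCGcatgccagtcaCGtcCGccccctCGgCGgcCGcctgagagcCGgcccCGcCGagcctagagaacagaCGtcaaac
Tet1 (chr10:62887275-62887574, minus strand): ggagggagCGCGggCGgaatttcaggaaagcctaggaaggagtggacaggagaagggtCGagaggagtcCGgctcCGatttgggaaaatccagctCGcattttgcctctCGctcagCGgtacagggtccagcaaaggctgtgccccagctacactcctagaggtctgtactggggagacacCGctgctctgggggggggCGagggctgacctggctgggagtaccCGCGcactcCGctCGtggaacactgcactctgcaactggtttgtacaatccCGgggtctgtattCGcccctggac
Dnmt3b (chr2:153649199-153649498, plus strand): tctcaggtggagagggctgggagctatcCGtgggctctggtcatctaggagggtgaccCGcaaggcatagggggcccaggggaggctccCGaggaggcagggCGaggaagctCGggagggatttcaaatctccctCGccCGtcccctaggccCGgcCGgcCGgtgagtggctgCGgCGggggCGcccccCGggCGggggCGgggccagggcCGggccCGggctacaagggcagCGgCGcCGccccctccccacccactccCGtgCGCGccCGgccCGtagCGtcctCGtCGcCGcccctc
The Tet2 window held 57 CGs, a number that 0.152% of the 32851 RefSeq windows of this length reach. The Dnmt3b window held 30, which 11.7% of windows reach, the Tet3 window 22 (23.1%) and the Tet1 window 17 (31.4%), against a median of 7 over all windows. The motif GGGCGG, the core of a GC box, was searched on both strands and occurred in all 4 of these windows. It occurred in 10 of the 12 windows used, which came from 7 members, against 35.7% of all windows. Windows 1 and 2 of Dnmt3a overlap, so the 12 are not all separate sequences. Each GGGCGG holds 1 CG, so the motif and the CG count are not independent. Methylation of these sequences was not measured.

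Tet3, annotated on chromosome 6 (83362373 to 83459084 on mm10, as are the positions below), had a lowest, median and highest level of 60.7, 71.0 and 79.3 CPM in BLA and of 36.9, 38.2 and 43.4 CPM in VTA. It was higher in all 6 BLA libraries than in any VTA library, by a log2 fold change of 0.86 (SE 0.08, edgeR adjusted p 4.67e-07), a fold of 1.82 with a 95% interval of 1.62 to 2.03. This was the most stable difference among the 9 genes: it passed under every alternative setting and with each library left out, at log2 fold changes of 0.75 to 0.91.

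Tet2 (chromosome 3, 133463679 to 133545139) had a lowest, median and highest level of 62.3, 73.5 and 86.2 CPM in BLA and of 52.2, 55.7 and 58.2 CPM in VTA. Its BLA libraries were again all higher, at a log2 fold change of 0.40 (SE 0.07, edgeR adjusted p 0.000401). It was 0.23 (edgeR adjusted p 0.0766) without the 5 libraries that had many ribosomal RNA reads or choroid plexus markers. Tet1 (chromosome 10, 62804570 to 62908996) was lower in BLA, with 27.1, 29.9 and 34.03 CPM in BLA and 31.98, 33.98 and 35.5 CPM in VTA as lowest, median and highest. These overlapped, and the log2 fold change of -0.17 (SE 0.07, edgeR adjusted p 0.0492) was close to the threshold.

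Within a library, the level of Tet3 per kb of exon was 1.95 to 2.29 times that of Tet1 in BLA and 0.991 to 1.26 times in VTA. The ratio of Tet2 to Tet1 was 2.08 to 2.41 in BLA and 1.35 to 1.60 in VTA. Such a ratio does not depend on how libraries are scaled, and neither ratio overlapped between the regions. The ratios were chosen after the values were seen and are given without a test.

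**Figure D3:**
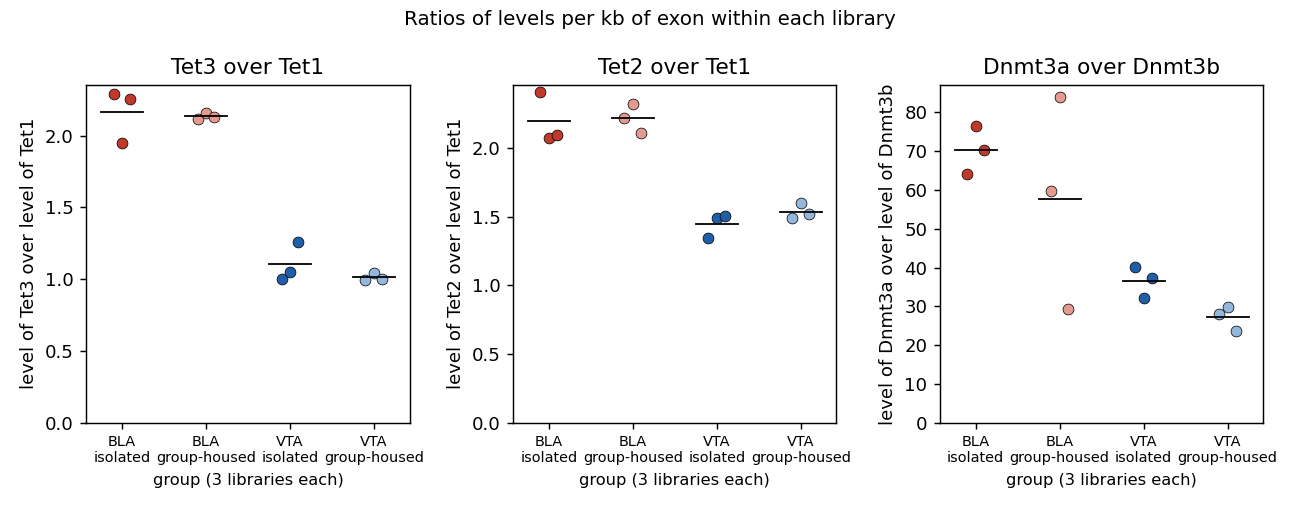
Ratio of levels per kb of exon within each library for Tet3 over Tet1, Tet2 over Tet1 and Dnmt3a over Dnmt3b; points are libraries (3 per group), lines group means, and axes start at 0. Tet3 over Tet1 lies between 1.95 and 2.29 in BLA and between 0.991 and 1.26 in VTA, while Dnmt3a over Dnmt3b overlaps between the regions.

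The writers differed less. Dnmt3a (chromosome 12, 3806007 to 3914443) had 105, 117 and 130 CPM in BLA and 96.2, 102 and 107 CPM in VTA as lowest, median and highest, and was higher in BLA by a log2 fold change of 0.22 (SE 0.06, edgeR adjusted p 0.00893), although the libraries overlapped. With upper-quartile factors it was 0.16 and did not pass (edgeR adjusted p 0.0521). An antisense gene, Dnmt3aos, shares 0.799% of the exonic bases of Dnmt3a, and another, Gm42567, shares 0.255% of those of Tet2. No source used here gives the strand setting of the counting. Dnmt3b (chromosome 2, 153649450 to 153687730) had 0.424, 0.570 and 1.10 CPM in BLA and 0.790, 0.972 and 1.33 CPM in VTA. It was lower in BLA by a log2 fold change of -0.65 (SE 0.24, edgeR adjusted p 0.0333), with overlap through BLA group-housed library 3. The ratio of Dnmt3a to Dnmt3b per kb was 29.4 to 84.1 in BLA and 23.7 to 40.2 in VTA, and overlapped.

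Dnmt1 (chromosome 9, 20907209 to 20959888) had 80.8, 90.3 and 92.1 CPM in BLA and 76.2, 78.6 and 84.5 CPM in VTA, a log2 fold change of 0.16 (SE 0.06, edgeR adjusted p 0.0304) with overlap. Uhrf1 (chromosome 17, 56303321 to 56323486) had 1.14, 1.42 and 1.76 CPM in BLA and 0.896, 1.00 and 1.61 CPM in VTA and did not pass (log2 fold change 0.34, SE 0.20, edgeR adjusted p 0.178). Of the readers, both on chromosome 18, Mbd2 had 29.0, 34.1 and 42.0 CPM in BLA and 24.7, 27.4 and 34.7 CPM in VTA, and was higher in BLA by a log2 fold change of 0.28 (SE 0.09, edgeR adjusted p 0.0140). Mbd1 had 52.3, 55.0 and 58.0 CPM in BLA and 49.4, 51.2 and 53.9 CPM in VTA and did not pass (log2 fold change 0.10, SE 0.06, edgeR adjusted p 0.174).

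The calls of Dnmt1, Tet1 and Dnmt3b each ended when any 1 of several libraries was left out. Dnmt1 stayed past the threshold only without BLA isolated library 1, VTA isolated library 2 or VTA group-housed library 1, and without any other library its edgeR adjusted p was between 0.0502 and 0.0848. Tet1 stayed past it only without BLA isolated library 3, BLA group-housed library 2 or VTA isolated library 3, and was otherwise between 0.0677 and 0.127. Dnmt3b lost its call without BLA isolated library 2 or 3, BLA group-housed library 1 or 2, VTA isolated library 2, or VTA group-housed library 1 or 3, at adjusted p of 0.0580 to 0.0783. Within isolated libraries alone the called genes were Tet3, Tet2 and Dnmt3a, and within group-housed libraries alone Tet3, Tet2 and Mbd2. Without the 5 libraries named above, Tet3 and Tet1 were called.

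Each of the 9 genes was also set beside the 13819 genes above a mean of 1 CPM to find those with the most similar profile over the 12 libraries, by Pearson correlation of log2 levels. The 2 genes most like Tet3 were Ripor1 and Ksr2 (r of 0.99 each), and those most like Tet2 were Chd4 and Kmt2b (0.97 each). For Tet1 they were Chd6 (0.96) and Cnbd2 (0.93), for Dnmt3a Gli3 (0.96) and Mtcl1 (0.95), and for Mbd2 9330182L06Rik and Havcr2 (0.96 each). The points of these correlations share the region difference and the libraries, so they are given as descriptions.

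The wider pathway was read from 8 lists holding 110 companion genes, none of them a member. In the BLA, 98 of them were tested for housing and 0 passed edgeR's adjusted threshold (0% called among all genes), 2 had an unadjusted p under 0.05 (1.99% of all genes did), and DESeq2 and limma voom called none, with a median log2 fold change of -0.04 over the lists against 0.0028 over all genes. In the VTA, 101 were tested and 0 passed, while 19 had an unadjusted p under 0.05, a share near the 18.3% of all genes. DESeq2 called 3 companions and limma voom none. The median log2 fold change was 0.05 over the lists and -0.0013 over all genes. Rrm2, which encodes the small subunit of ribonucleotide reductase, had the lowest p of the companions in the BLA, with 1.45, 0.851 and 1.40 CPM in isolated BLA and 0.821, 0.469 and 0.560 CPM in group-housed BLA. Its isolated libraries were all higher, at a log2 fold change of 0.96 (SE 0.35, unadjusted p 0.0182, edgeR adjusted p 1.00). Rrm2 gave a log2 fold change of 0.76 (SE 0.25, edgeR adjusted p 0.236) in the VTA, also without overlap between the groups.

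The 3 imprinted genes with the lowest p in the VTA were lower in isolated libraries without passing the threshold. Meg3, a maternally expressed long noncoding RNA whose locus is controlled by methylation, had 1253, 2285 and 1147 CPM in isolated VTA and 3047, 2999 and 3094 CPM in group-housed VTA. Isolated libraries 1 and 3 were the lowest, all 3 isolated libraries were below the group-housed ones, and the log2 fold change was -0.96 (SE 0.26, edgeR adjusted p 0.236). Peg10, a paternally expressed gene of retrotransposon origin, had 36.5, 59.8 and 49.5 CPM in isolated VTA and 95.3, 88.7 and 68.5 CPM in group-housed VTA (log2 fold change -0.79, SE 0.20, adjusted p 0.236). Magel2, a paternally expressed gene of the Prader-Willi region, gave a log2 fold change of -0.74 (SE 0.22) at the same adjusted p, though its libraries overlapped, and the 3 companions that DESeq2 called, among 486 of all genes, were these. Zfp57, the zinc finger protein that protects methylation at imprinted loci, had 11.7, 18.4 and 13.1 CPM in isolated VTA and 21.6, 19.8 and 18.8 CPM in group-housed VTA (log2 fold change -0.48, SE 0.17, edgeR adjusted p 0.241). Mat2b, the regulatory subunit of the enzyme that makes the methyl donor, had 82.6, 73.9 and 107 CPM in isolated VTA and 64.0, 63.8 and 64.1 CPM in group-housed VTA (log2 fold change 0.46, SE 0.13, edgeR adjusted p 0.236). For all 5 of these genes (Meg3, Peg10, Magel2, Zfp57 and Mat2b), the isolated library nearest to the group-housed ones was library 2, the only one of the 3 with choroid plexus markers at the level of the other libraries. Without library 2, edgeR's quasi-likelihood test called 6 companions, Meg3, Kcnq1ot1, Peg10, Zfp57, Mat2b and Pcna, and 1200 of all genes. The response of Meg3 in the BLA minus that in the VTA was 1.04 on the log2 scale (SE 0.28, edgeR adjusted p 0.303), and it passed, as did that of Kcnq1ot1, without VTA isolated library 2.

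Between the regions, 68 of 102 tested companions passed, 37 higher in BLA and 31 lower, beside 47.7% of all genes. Of 8 other genes listed as methyl-CpG readers or as members of the MBD family, 6 were higher in BLA. Among them were Zbtb33 (Kaiso) with a log2 fold change of 1.08 (SE 0.12) and the repair glycosylase Mbd4 with 0.79 (SE 0.12). Zbtb4 was lower at -0.22 (SE 0.07), and Mbd6 did not pass. Of 15 genes of NuRD and the corepressors that readers bind, 11 were higher, with Ncor1 at 0.84 (SE 0.08), and 4 were lower. Of 16 repair genes and partners of active demethylation, 7 were higher, including the glycosylase Tdg (0.65, SE 0.09) and Parp1 (0.79, SE 0.08), and 6 were lower, including the glycosylase Neil2 (-1.65, SE 0.18). Of 18 imprinted genes, 1 was higher, Mest at 0.93 (SE 0.10), and 11 were lower, among them Nap1l5 (-1.61, SE 0.10), Grb10 (-1.20, SE 0.08), Peg3 (-1.03, SE 0.09) and Impact (-1.14, SE 0.09). The median log2 fold change of the imprinted genes was -0.92, against -0.02 for all genes. Of 14 genes of the methyl donor cycle and of 2-oxoglutarate supply, the TET cosubstrate, 2 were higher and 7 lower, including the isocitrate dehydrogenase Idh1 (-0.55, SE 0.06). Zbtb33, Mbd4, Zbtb4, Mbd6, Tdg, Neil2 and Mest were singled out after their values were seen.

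The remaining lists are read against the 47.7% of all genes called (23.7% higher and 24.1% lower). Of 10 tested partners of maintenance and de novo methylation, 4 were higher in BLA and 1, Zfp57, was lower (-1.23, SE 0.14). Of 6 tested germline genes that promoter methylation silences in somatic cells, 3 were higher and none lower, and of 15 cell cycle genes 3 were higher and 1 lower.

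**Figure D4:**
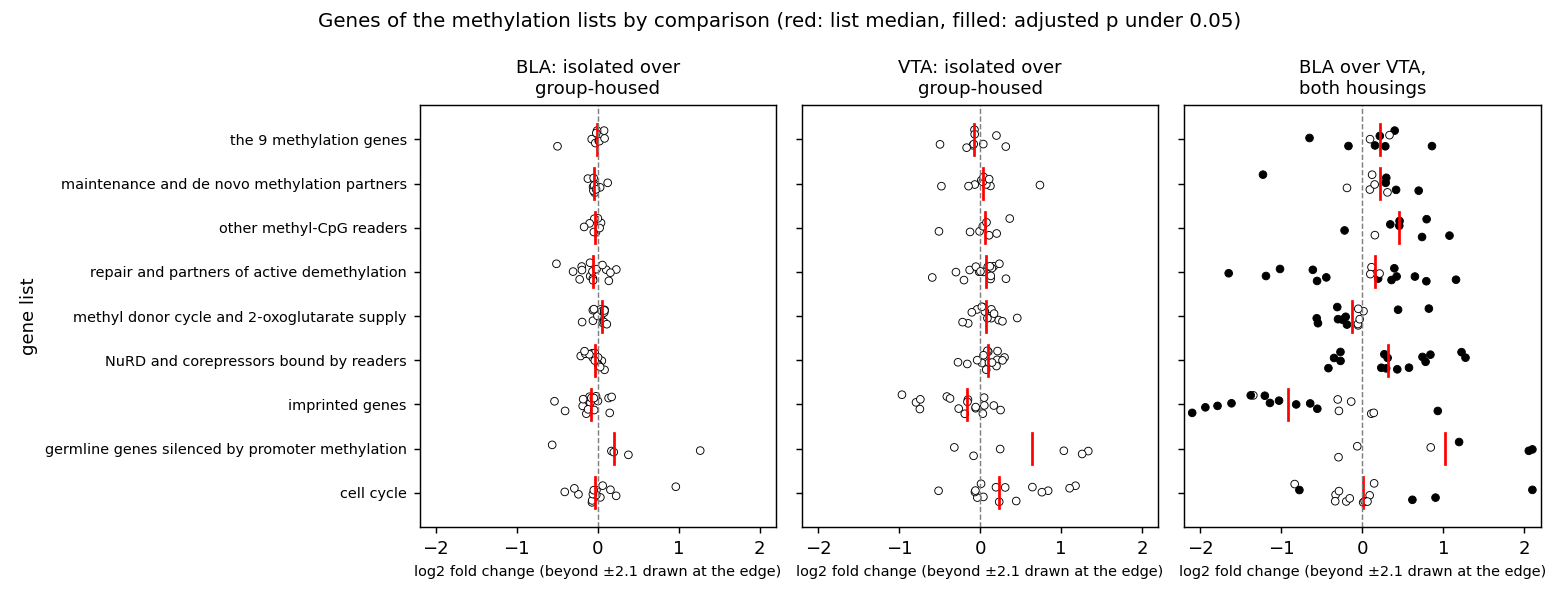
Log2 fold change of each tested gene (points, filled where the edgeR adjusted p is under 0.05) of the 9 genes and the 8 companion lists, with the list median in red, for isolated over group-housed libraries in the BLA and the VTA and for BLA over VTA; values beyond 2.1 are drawn at the edge. No point is filled in the housing panels, and in the region panel 11 of 18 imprinted genes are filled on the lower side.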

How the data were processed

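The authors deposited raw gene counts per library. Cutadapt, TopHat2, HTSeq and the mm10 build are named, without versions, by the submitters' processing notes. Per the labels' protocols, stranded libraries were made after depletion of ribosomal RNA. No source used here gives the strand setting or the annotation used for counting. The per-sample tables were used. The series table differs from them at 2 entries, none of them a member. Of 54429 entries, 98.9% matched GENCODE gene names on mm10, and names of 26 had been turned into dates.

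Counts were fitted with edgeR 4.0.16 in R 4.3.3 (filterByExpr with a count minimum of 10, TMM factors, quasi-likelihood test, Benjamini-Hochberg threshold 0.05 over all genes). Housing was tested within each region over 6 libraries. The difference of responses and BLA against VTA came from 1 fit of all 12. Levels are TMM-scaled CPM, divided by the union of exons where genes are compared. No label says if replicate numbers in the titles pair the libraries, and no block was used in the main fits. Alternatives were RLE and upper-quartile factors, DESeq2 1.42.0, limma 3.58.1 (voom), 2 other filters, a threshold of 0.1, a replicate block, removal of ribosomal loci or of libraries that stand apart, and each library left out. On simulated counts with 2-fold changes, the housing test recovered 97% of changed genes in the BLA (21756 genes) and 80.6% in the VTA (23518 genes). For 1.5-fold changes it recovered 46.3% in the BLA and 23.9% in the VTA. The changed genes were a small part of the genes simulated and were drawn only from abundant ones. That class holds the other members but not Dnmt3b and Uhrf1, so recovery at counts as low as theirs was not simulated. Companions named were the 8 with the smallest p in each comparison (in BLA against VTA, among those past the threshold), and every member was named. The members and lists were chosen with earlier results of these data known. Promoter sequences are from RefSeq, and no window was used for Mbd1 and Mbd2.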

Additional observations from a re-analysis of the deposited data

How the results depend on the processing

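No member passed the threshold in either housing comparison or in the difference of responses under any alternative run, while counts over all genes moved, and the cause was not tested. In the BLA, where edgeR called 0 genes, DESeq2 called 6, no filter gave 8, and leaving out the 3 libraries with many ribosomal RNA reads gave 1, and leaving out each library in turn gave 0 to 4. In the VTA, where edgeR called 1 gene, DESeq2 called 486, no filter gave 17, voom 2, and upper-quartile factors, the replicate block and leaving out the 2 libraries rich in choroid plexus markers gave 0 each, and leaving out each library gave 0 to 1200, the most without VTA isolated library 2. Companion genes called there were 3 with DESeq2 and 0 to 6 with each library left out. For the difference of responses, DESeq2 called 138 genes, no filter, the replicate block and a threshold of 0.1 gave 1 each, and leaving out each library gave 0 to 487, with 0 to 2 companions. Between the regions, the 7 members called became 4 with no filter, 3 within isolated and 3 within group-housed libraries, 2 without the 5 libraries that stand apart, and 4 to 6 with each library left out. The replicate block gave 5 there, ending the calls of Tet1 and Dnmt1 (edgeR adjusted p 0.0925 and 0.0637), and changed no other member call. Upper-quartile factors also gave 5, ending the calls of Dnmt3a and Dnmt1 (adjusted p 0.0521 and 0.217), and the call of Tet1 ended with RLE factors (0.0577), with DESeq2 (0.0531) and with the filter of 10 counts in 3 libraries. Correlations of deviations between same-numbered libraries were 0.17, -0.03 and 0.0032 in the BLA and -0.06, -0.03 and -0.02 in the VTA. The first of these was the highest among all pairs in the BLA. With so few libraries per group, such values cannot tell if same-numbered libraries were paired.

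Some estimates changed sign, none of them past the threshold. In the BLA, the log2 fold change of Tet1 was 0.0041 with upper-quartile factors, 0.026 with voom, 0.0013 with no filter and 0.10 without the 3 libraries with many ribosomal RNA reads, where Tet2 was 0.19. In the VTA, Tet3 was -0.033 with upper-quartile factors, and without the 2 libraries rich in choroid plexus markers Dnmt1 was 0.025 and Uhrf1 -0.16. For the difference of responses, Mbd1 was 0.0040 with RLE factors, 0.13 with upper-quartile factors, 0.0011 with DESeq2, 0.0032 with voom and 0.016 without the 3 ribosomal loci. Upper-quartile factors gave 0.093 for Dnmt1, 0.071 for Dnmt3b and 0.053 for Tet3, voom -0.0024 for Dnmt3a, and the replicate block 0.059 for Dnmt3b. Leaving out each library in turn gave, in the BLA, -0.089 to 0.071 for Tet1, -0.14 to 0.088 for Tet2, -0.073 to 0.11 for Tet3, -0.061 to 0.016 for Mbd1, -0.099 to 0.17 for Mbd2 and -0.068 to 0.24 for Uhrf1. It gave -0.010 to 0.083 for Tet3 in the VTA. For the difference of responses it gave -0.080 to 0.0056 for Dnmt1, -0.25 to 0.41 for Dnmt3b, -0.066 to 0.12 for Tet1, -0.030 to 0.23 for Tet2, -0.17 to 0.034 for Tet3 and -0.038 to 0.028 for Mbd1. Depth limits Dnmt3b and Uhrf1, whose intervals are the widest. Where a setting leaves 1 library in a group, that library was assumed to vary like the others.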

Other observations

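Other companion genes with a low p for housing did not pass edgeR's adjusted threshold either. In the BLA, the germline gene Taf7l had 0.700, 0.586 and 1.30 CPM in isolated libraries and 0.328, 0.156 and 0.485 CPM in group-housed libraries, without overlap (log2 fold change 1.26, SE 0.47, edgeR adjusted p 1.00). The log2 fold changes of Mta3, a NuRD subunit (-0.21), the demethylation partner Gadd45b (-0.31), the imprinted genes Cdkn1c (-0.53) and Nnat (-0.18), the replication helicase subunit Mcm4 (-0.29) and the glycosylase Neil2 (-0.51) were all below 0 in the BLA. In the VTA, Pcna, the sliding clamp of DNA replication, had 38.4, 30.4 and 40.5 CPM in isolated libraries and 27.7, 29.9 and 30.5 CPM in group-housed libraries (log2 fold change 0.31, SE 0.11, edgeR adjusted p 0.249). The germline gene Dazl had 1.71, 0.933 and 3.57 CPM in isolated VTA and 1.05, 0.869 and 0.551 CPM in group-housed VTA (log2 fold change 1.34, SE 0.50, edgeR adjusted p 0.252). Isolated VTA libraries 1 and 3, those with choroid plexus markers, were again the highest for both genes. The response in the BLA minus that in the VTA was 0.61 for Peg10, 0.86 for Kcnq1ot1, 0.82 for Magel2, -0.58 for Cxxc5, -0.49 for Mat2b, -0.31 for Mta3 and -0.32 for Snrpn on the log2 scale, none past the threshold.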
